A study of Mus musculus with 6 samples.

Results

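The 10 genes described here mark endothelial cells, the cells that line blood vessels. They are Pecam1, Cdh5, Kdr, Flt1, Tek, Tie1, Eng, Vwf, Emcn and Plvap, chosen by symbol for their place in endothelial identity, with earlier results of these data known. All 10 were found among the 54532 Ensembl gene IDs of the deposited tables, and all 10 passed the filter on low values (a mean of 0.5 FPKM or more), as did 15069 genes in all. RNAseq was performed on mammary tumors of NeuT/ATTAC mice, with 3 tumors labelled IgG and 3 labelled anti-PD-1. Every mouse in both groups carried MMTV-NeuT, in which a mammary-active promoter drives Erbb2 (an ErbB receptor that transforms mammary epithelium), and FAT-ATTAC, with which the dimerizer AP20187 ablates mammary adipose tissue and so induces fibrosis. AP20187 at 0.4 mg/kg was begun in all at 6 weeks of age, biweekly in the sample labels and triweekly in the paper. Antibody, either a murine anti-PD-1 mAb or an isotype-matched IgG, was begun at 8 weeks with 100 μg given 2 times per week. The mice were on an FVB background, into which FAT-ATTAC had been crossed from C57BL/6. No group without AP20187 or without antibody was analysed here. A legend in the paper speaks of pooled RNA per group, whereas the tables hold separate values per labelled replicate, so p-values measure only the spread between these libraries.

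Endothelial cells are held together by VE-cadherin and PECAM1 and read growth signals through receptor kinases. VEGF acts through VEGFR2 (Kdr), while VEGFR1 (Flt1) binds the ligand tightly and can act as a decoy. Angiopoietins act through the Tie2 receptor (Tek), with which the orphan receptor Tie1 associates, and BMP9 and TGF-β ligands act through complexes that hold endoglin (Eng). Mature endothelium is further known by von Willebrand factor (Vwf), a clotting glycoprotein that platelets also carry, by the sialomucin endomucin (Emcn) of capillaries and veins, and by Plvap, which forms the diaphragms of fenestrae and caveolae in permeable vessels. In a mammary tumor vessels run in the stroma, and endothelial expression is known to rely on ETS family factors, whose core motif is GGAA.

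The promoters of the VEGF and Tie receptors are shown because the 4 receptors form 2 related pairs whose values are compared below. The sequences are RefSeq promoters of GRCm38.p6, 250 bases before to 50 bases after the transcript start, 300 bases each and read 5′ to 3′ on the strand of the gene. Capitals mark each GGAA, or TTCC where the motif lies on the other strand. The table held 6 of the 10 genes (Kdr, Flt1, Tek, Tie1, Eng and Emcn), and Pecam1, Cdh5, Vwf and Plvap were not in it.
Kdr: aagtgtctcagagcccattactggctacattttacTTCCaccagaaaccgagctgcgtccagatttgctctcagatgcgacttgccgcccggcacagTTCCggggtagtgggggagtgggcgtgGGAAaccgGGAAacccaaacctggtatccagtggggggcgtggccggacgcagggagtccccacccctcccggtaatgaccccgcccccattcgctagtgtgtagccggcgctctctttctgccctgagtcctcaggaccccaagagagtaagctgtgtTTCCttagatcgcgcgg
Flt1: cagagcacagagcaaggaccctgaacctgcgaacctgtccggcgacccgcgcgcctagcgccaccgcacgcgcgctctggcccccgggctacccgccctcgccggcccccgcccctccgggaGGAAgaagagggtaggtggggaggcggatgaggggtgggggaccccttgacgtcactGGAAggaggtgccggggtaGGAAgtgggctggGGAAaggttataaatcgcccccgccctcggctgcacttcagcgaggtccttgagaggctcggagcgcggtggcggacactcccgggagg
Tek: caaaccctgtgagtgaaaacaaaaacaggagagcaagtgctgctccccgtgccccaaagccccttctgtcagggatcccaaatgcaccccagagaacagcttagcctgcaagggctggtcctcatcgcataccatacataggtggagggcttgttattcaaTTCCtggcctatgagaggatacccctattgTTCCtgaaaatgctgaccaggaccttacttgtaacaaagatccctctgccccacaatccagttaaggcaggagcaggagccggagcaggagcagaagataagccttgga
Tie1: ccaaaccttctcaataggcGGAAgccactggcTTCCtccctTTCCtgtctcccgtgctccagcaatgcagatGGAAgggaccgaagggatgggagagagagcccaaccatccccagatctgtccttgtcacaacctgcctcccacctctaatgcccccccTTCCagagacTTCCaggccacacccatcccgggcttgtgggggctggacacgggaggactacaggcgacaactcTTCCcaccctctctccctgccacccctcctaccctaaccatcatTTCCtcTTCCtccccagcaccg
The Kdr window is chr5:75978406-75978705 on the minus strand, the Flt1 window chr5:147725962-147726261 on the minus strand, the Tek window chr4:94739039-94739338 on the plus strand and the Tie1 window chr4:118489800-118490099 on the minus strand. GGAA occurred 9 times in the Tie1 window, 5 times in Kdr, 4 times in Flt1 and 2 times in Tek, on both strands together. It occurred 4 times in the Eng and 6 times in the Emcn window. Since 96.0% of the 32851 promoter windows of the same length hold this motif, with a median of 3 per window, its presence sets none of these genes apart. At least 5 matches were found in 28.6% of all windows. The GATA-type motif GATAA was found 1 time in Tek and 1 time in Emcn, against 25.4% of all windows with a match, and it was not in the other 4 windows. The E-box CANNTG occurred in 5 of the 6 windows (not in Flt1) and in 72.3% of all windows. These are letter matches only.

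The values deposited by the authors are FPKM, fragments on a gene per kilobase of its exons and scaled to the fragments of the library. The exon length that returned whole reads (below) was that of all annotated exons merged, so levels compared between genes depend on that length. Values are given throughout in the order of replicates 1, 2 and 3, under IgG and then under anti-PD-1. Reads behind each value could be recovered from FPKM and exon length and totalled between 21075641 and 23852764 per tumor. For the 10 genes, every value came out at a whole number of reads (within 0.1), and the least was 77, for Tek in anti-PD-1 replicate 2. At this depth, 3 reads on 2 kb of exons correspond to between 0.0586 and 0.0682 FPKM, well below the lowest value of any of the 10 genes. The tumors were epithelial, with Epcam (an epithelial adhesion protein) between 690 and 1150 FPKM, and Krt8, an epithelial keratin, between 431 and 1041 FPKM, far above the endothelial genes. Of 5 mammary epithelium genes, 2 did not overlap (Epcam at a log2 fold change of 0.43 and Erbb2 at 0.34), beside 18.1% of all genes, while Krt8 had 0.41, Krt18 0.34 and Cdh1 (E-cadherin) -0.34. In whole tumors, fewer endothelial cells and less RNA per cell cannot be told apart. The 5 skeletal muscle genes, Acta1 and Tnnt3 among them, summed to between 6.30 and 119 FPKM under IgG and between 8.90 and 122 FPKM under anti-PD-1, high in IgG replicate 2 and in anti-PD-1 replicates 1 and 2. Acta1 and Tnnt3 had log2 fold changes of 1.28 and 1.10 with overlap. Their part in the values below was not tested. Adipocyte genes were low, with Adipoq (adiponectin) at most 1.19 FPKM and Fabp4, also found in capillaries, at 1.35 to 5.64 FPKM (log2 fold change -0.32).

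By mean FPKM over the 6 tumors, Plvap stood highest at 15.1 ± 5.63 (SD, n = 6) and above Eng in all 6 tumors. Eng followed at 6.37 ± 1.67 (SD, n = 6), Cdh5 at 5.30 ± 2.26 (SD, n = 6) and Pecam1 at 5.25 ± 1.07 (SD, n = 6). Eng exceeded Cdh5 in 5 of 6 tumors, and Cdh5 exceeded Pecam1 in 3 of 6, so that the order of Cdh5 and Pecam1 was not fixed. All 6 tumors had more Pecam1 than Tie1. The receptor kinases were lower, with Tie1 at 2.18, Kdr at 2.14, Flt1 at 1.43 and Tek at 1.23 FPKM, and Emcn lay among them at 1.68 FPKM. Tie1 exceeded Kdr in 4 of 6 tumors, Kdr exceeded Emcn in all 6, Emcn exceeded Flt1 in 5 and Flt1 exceeded Tek in 5. Vwf was the lowest at 0.727 ± 0.384 FPKM (SD, n = 6), below Tek in 4 of 6 tumors. In reads Vwf stood above Tek, with 1709 against 832 in all, over 16064 and 4712 bases of merged exons. The order of levels thus depends on the exon length used.

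**Figure D1:**
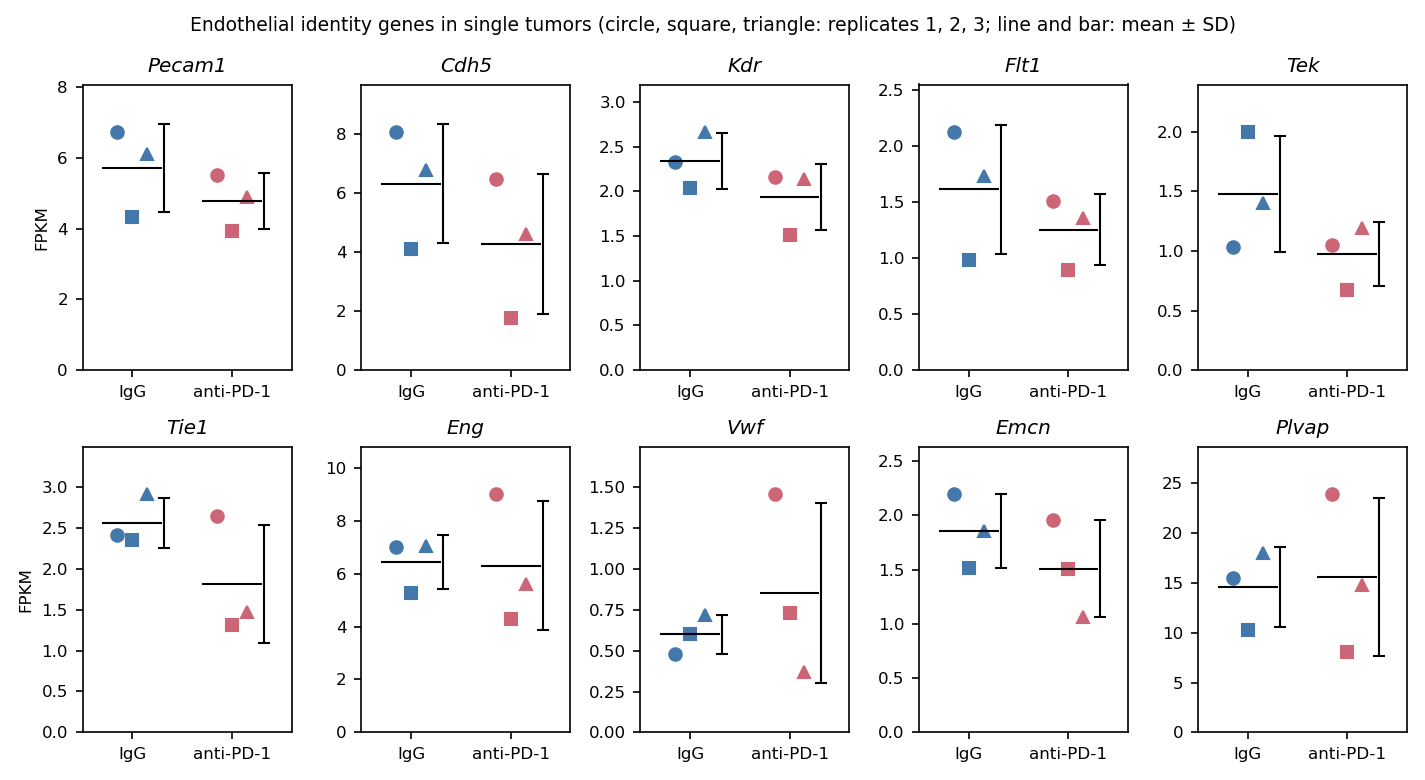
FPKM (vertical axes, each from 0) of the 10 endothelial genes in the 3 IgG and 3 anti-PD-1 tumors, with circle, square and triangle for replicates 1, 2 and 3, and the mean with its SD beside the points. In all 10 panels the groups overlap, and the square of the anti-PD-1 group is the lowest point in 8 of them.

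The study lists endothelial cell proliferation among the processes upregulated in anti-PD-1 tumors. By imaging mass cytometry it reported no change in the percentage of CD31+ endothelial cells, a measure of protein and not of RNA. The first comparison asks whether the identity genes themselves differed between anti-PD-1 and IgG tumors. None of the 10 genes rose or fell past the test. The mean log2(FPKM + 1) was lower in anti-PD-1 tumors for 8 genes (Cdh5, Tie1, Tek, Pecam1, Flt1, Emcn, Kdr and Eng) and higher for 2 (Vwf and Plvap). The log2 fold changes ran from -0.54 for Cdh5 to 0.17 for Vwf, with a median of -0.19, against 0.01 over all tested genes, of which 49.2% were lower. By limma (two-sided, Benjamini-Hochberg over all 15069 genes), 0 of the 10 had an adjusted p under 0.05, as was so for 0.0% of all genes tested. At an unadjusted p under 0.05, 0 of the 10 were called in either direction, beside 6.22% of all genes called higher and 6.05% called lower. In 0 of the 10 did the groups fail to overlap, beside 18.1% of all genes (9.3% higher and 8.75% lower in anti-PD-1). With single tumors left out this count ran from 0 to 4, beside 22.9% to 35.5% of all genes. The 95% intervals of the fold changes all spanned 0. Adding 1 to FPKM draws low genes toward 0, and with voom on the recovered reads 6 of the 10 log2 fold changes were over 1.5 times as far from 0, Tek the most at -0.59 against -0.31, in the same direction and with no adjusted p under 0.05.

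**Figure D2:**
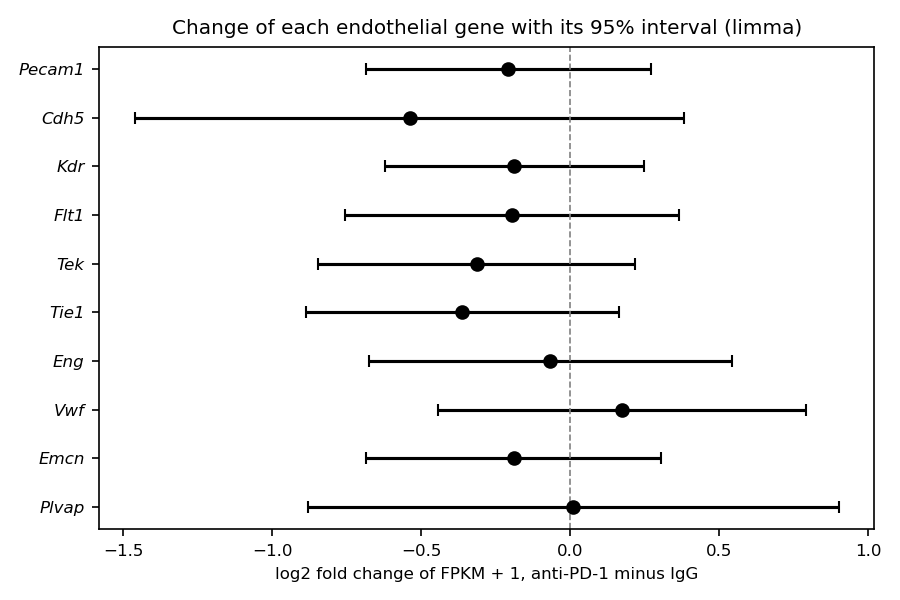
Log2 fold change of FPKM + 1 (horizontal axis, anti-PD-1 minus IgG) for the 10 endothelial genes, with the 95% interval from limma. Every interval crosses the dashed line at 0, and 8 of the 10 points lie to its left.

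Both junction proteins had a lower mean in anti-PD-1 tumors without passing the test. Pecam1 (ENSMUSG00000020717, chromosome 11 from 106654217 to 106750628), the adhesion molecule also known as CD31, had 6.73, 4.33 and 6.11 FPKM under IgG and 5.51, 3.93 and 4.89 FPKM under anti-PD-1. Replicate 2 was the low tumor in each group, and the highest anti-PD-1 tumor lay between IgG tumors. For Pecam1 the log2 fold change was -0.21 (standard error 0.20, 95% interval from -0.69 to 0.27, limma adjusted p = 0.703, exact permutation p = 0.4). Cdh5 (ENSMUSG00000031871, chromosome 8 from 104101625 to 104144511), which encodes VE-cadherin of the endothelial adherens junction, had 8.06, 4.11 and 6.77 FPKM under IgG and 6.48, 1.77 and 4.62 FPKM under anti-PD-1. It varied most of the 10 genes, with a highest value 4.57 times the lowest, and its low value rested on 180 reads in anti-PD-1 replicate 2. The log2 fold change of Cdh5 was -0.54 (standard error 0.39, 95% interval from -1.46 to 0.38, limma adjusted p = 0.602, exact permutation p = 0.4), or -0.13 when anti-PD-1 replicate 2 was left out. The antisense gene Gm29682 overlaps Cdh5, and it is not stated whether reads were counted by strand.

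Neither VEGF receptor passed the test. Kdr (ENSMUSG00000062960, chromosome 5 from 75932827 to 75978458) had 2.32, 2.03 and 2.66 FPKM under IgG and 2.16, 1.51 and 2.14 FPKM under anti-PD-1. A pair of anti-PD-1 tumors sat inside the IgG range and only replicate 2 lay under it. The log2 fold change of Kdr was -0.19 (standard error 0.19, 95% interval from -0.62 to 0.25, limma adjusted p = 0.706, exact permutation p = 0.3). Flt1 (ENSMUSG00000029648, chromosome 5 from 147561604 to 147726011) had 2.12, 0.984 and 1.73 FPKM under IgG and 1.51, 0.895 and 1.356 FPKM under anti-PD-1. Replicate 2 was again the low tumor of each group, and the other anti-PD-1 tumors lay within the IgG range. The log2 fold change of Flt1 was -0.20 (standard error 0.24, 95% interval from -0.76 to 0.37, limma adjusted p = 0.764, exact permutation p = 0.4).

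The Tie receptors had the lowest log2 fold changes after Cdh5. Tie1 (ENSMUSG00000033191, chromosome 4 from 118471191 to 118490061) had 2.41, 2.35 and 2.91 FPKM under IgG and 2.64, 1.32 and 1.47 FPKM under anti-PD-1. Here anti-PD-1 replicate 1 was in the IgG range and the other anti-PD-1 tumors were well under it. The log2 fold change was -0.36 (standard error 0.22, 95% interval from -0.89 to 0.16, limma adjusted p = 0.535, exact permutation p = 0.3), with the smallest limma p of the 10 genes. Tek (ENSMUSG00000006386, chromosome 4 from 94739289 to 94874976) had 1.03, 1.9985 and 1.40 FPKM under IgG and 1.05, 0.674 and 1.197 FPKM under anti-PD-1. It departed from the other genes in IgG replicate 2, which was its highest tumor and among the low ones for Pecam1, Cdh5, Kdr and Flt1. The log2 fold change of Tek was -0.31 (standard error 0.23, 95% interval from -0.85 to 0.22, limma adjusted p = 0.600, exact permutation p = 0.3). Both Tie genes lie on chromosome 4, where the median log2 fold change over 926 tested genes was -0.40, and 83.6% of them were lower. In single tumors, the median of chromosome 4, centered on the 6-tumor mean, was -0.09, 0.35 and 0.31 under IgG and -0.16, -0.22 and -0.24 under anti-PD-1. The part of the chromosome in the Tie1 and Tek values was not tested.

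The remaining genes are the co-receptor Eng and the vessel proteins Plvap, Emcn and Vwf. Eng (ENSMUSG00000026814, chromosome 2 from 32646595 to 32682669), the TGF-β and BMP co-receptor, had 7.01, 5.26 and 7.05 FPKM under IgG and 8.995, 4.27 and 5.63 FPKM under anti-PD-1. The anti-PD-1 tumors thus held both the highest and the lowest value, and the log2 fold change was -0.07 (standard error 0.26, 95% interval from -0.68 to 0.54, limma adjusted p = 0.937, exact permutation p = 1). The direction of Eng turned with single tumors, to 0.14 when anti-PD-1 replicate 2 was left out, while it was -0.32 when anti-PD-1 replicate 1 was. Plvap (ENSMUSG00000034845, chromosome 8 from 71497765 to 71511752) showed the same spread, with 15.5, 10.2 and 17.9998 FPKM under IgG and 23.8, 8.09 and 14.7 FPKM under anti-PD-1. The log2 fold change of Plvap was 0.01 (standard error 0.38, 95% interval from -0.88 to 0.90, limma adjusted p = 0.993, exact permutation p = 1). Plvap likewise went to -0.34 when anti-PD-1 replicate 1 was left out and to 0.39 when anti-PD-1 replicate 2 was. Emcn (ENSMUSG00000054690, chromosome 3 from 137341067 to 137432185) had 2.19, 1.51 and 1.86 FPKM under IgG and 1.96, 1.502 and 1.07 FPKM under anti-PD-1, and it was lowest in anti-PD-1 replicate 3. Its log2 fold change was -0.19 (standard error 0.21, 95% interval from -0.68 to 0.30, limma adjusted p = 0.737, exact permutation p = 0.4). Vwf (ENSMUSG00000001930, chromosome 6 from 125546774 to 125686679) had 0.478, 0.604 and 0.719 FPKM under IgG and 1.46, 0.729 and 0.372 FPKM under anti-PD-1. Anti-PD-1 replicate 1, with 599 reads, set the higher mean of Vwf (without it the log2 fold change was -0.051), and the full log2 fold change was 0.17 (standard error 0.26, 95% interval from -0.44 to 0.79, limma adjusted p = 0.816, exact permutation p = 0.6). Reads of Eng could include those of Fpgs and of small RNA genes that overlap it, and reads of Plvap those of Gtpbp3.

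The spread among tumors of a group was wide. Relative to each gene's mean over the 6 tumors, the mean of the 10 genes on the log2 scale was 0.18, -0.10 and 0.21 under IgG and 0.25, -0.41 and -0.12 under anti-PD-1. Anti-PD-1 tumors thus stood at both ends, with replicate 1 the highest and replicate 2 the lowest of all. Anti-PD-1 replicate 2 was the lowest tumor for 8 of the 10 genes and anti-PD-1 replicate 3 for the other 2, Vwf and Emcn. The highest tumor was IgG replicate 1 for 4 genes (Pecam1, Cdh5, Flt1 and Emcn), anti-PD-1 replicate 1 for 3 (Eng, Vwf and Plvap), IgG replicate 3 for 2 (Kdr and Tie1) and IgG replicate 2 for 1 (Tek).

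A pair of shared orders could be seen among the 6 tumors. Pecam1, Cdh5 and Flt1 fell in the same order, IgG replicate 1, IgG replicate 3, anti-PD-1 replicate 1, anti-PD-1 replicate 3, IgG replicate 2 and anti-PD-1 replicate 2, and Kdr differed only in that the IgG tumors at the top changed places. Eng and Plvap also shared an order, with anti-PD-1 replicate 1 first, then IgG replicates 3 and 1, anti-PD-1 replicate 3, IgG replicate 2 and anti-PD-1 replicate 2. Tek, Vwf and Plvap followed the mean of the 10 genes loosely, with a root-mean-square difference from it of 0.30, 0.28 and 0.28 on the log2 scale, against 0.10 for Eng, 0.11 for Pecam1 and 0.12 for Kdr. Cdh5 was the furthest from it, at 0.35, and stood at -1.09 in anti-PD-1 replicate 2. In that tumor Plvap was at -0.74 and the 8 other genes lay between -0.45 and 0.03. Cdh5 and Plvap lie on chromosome 8, whose 804 tested genes had a median of -0.29 in anti-PD-1 replicate 2, against 0.13 in each of the other anti-PD-1 tumors and between -0.06 and 0.03 in the IgG tumors. The part of the chromosome in these values was not tested.

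Of 5 red blood cell genes, 3 ranked the tumors as the mean of the endothelial genes did. Hba-a1 and Hbb-bs (adult globins) and Alas2 (the erythroid enzyme of heme synthesis) each placed the 6 tumors in the order of the mean of the 10 genes. Hba-a1 had 87.7, 35.3 and 134 FPKM under IgG and 345, 18.4 and 29.6 FPKM under anti-PD-1. Alas2 was lower, with 1.72, 1.25 and 4.13 FPKM under IgG and 7.23, 0.360 and 0.736 FPKM under anti-PD-1. All 3 were highest in anti-PD-1 replicate 1 and lowest in anti-PD-1 replicate 2, and the groups overlapped. The other globins, Hba-a2 and Hbb-bt, did not follow this order. Hba-a2 was at 88.1 FPKM in anti-PD-1 replicate 1 and at most 0.618 FPKM elsewhere (log2 fold change 2.31), and Hbb-bt was at 23.7 FPKM there and at most 0.821 FPKM elsewhere (log2 fold change 1.49). With the median of the 10 genes in place of the mean, IgG replicate 3 and anti-PD-1 replicate 1 changed places, at 0.19 each, and so did IgG replicate 2 and anti-PD-1 replicate 3. This order was noticed in the data, globin genes have near-identical copies that share reads, and the part of blood content in the endothelial values was not tested.

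**Figure D3:**
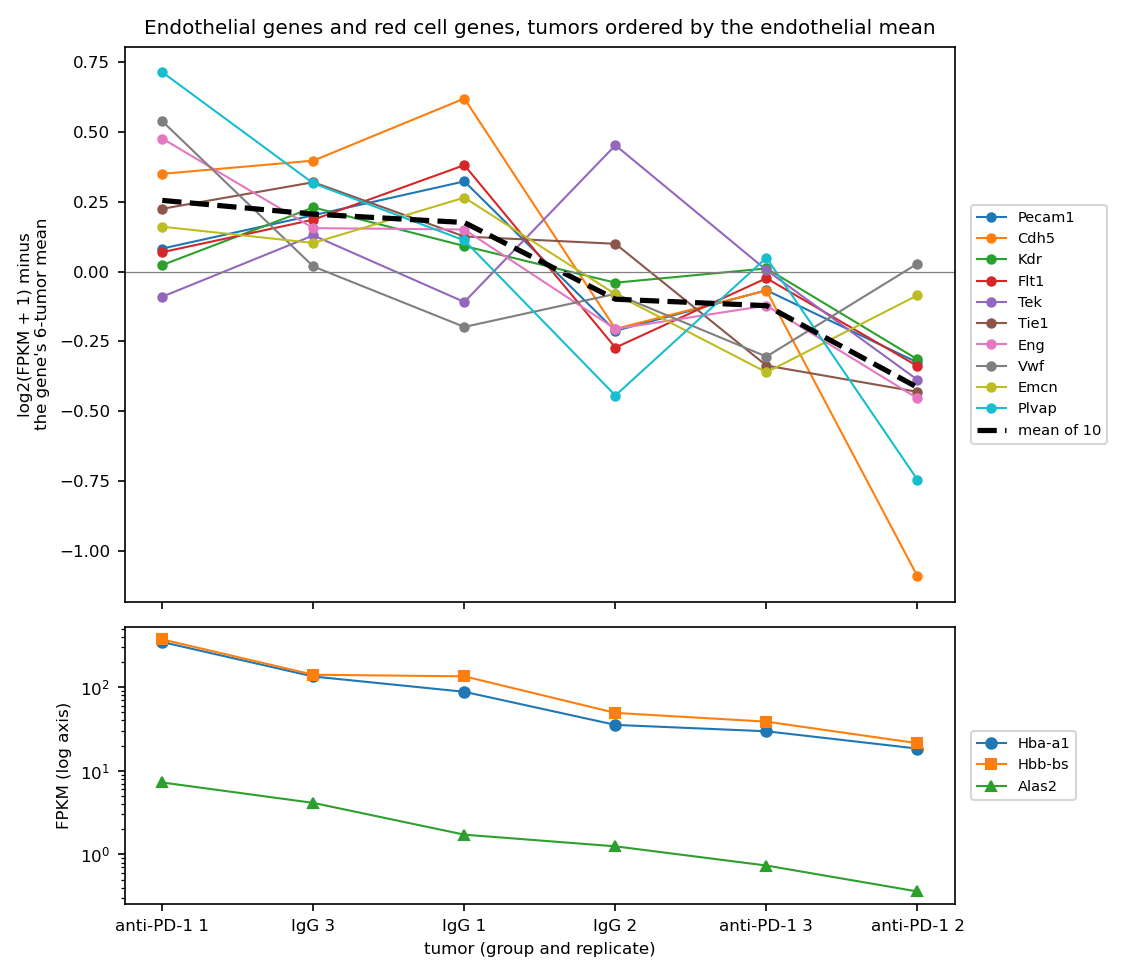
Top, log2(FPKM + 1) of each endothelial gene minus its 6-tumor mean, with the mean of the 10 genes as a dashed line, and bottom, FPKM of Hba-a1, Hbb-bs and Alas2 on a log axis, for the 6 tumors ordered by that mean. The dashed line goes from 0.25 in anti-PD-1 replicate 1 to -0.41 in anti-PD-1 replicate 2, and the 3 red cell genes descend in the same order. Hba-a2 and Hbb-bt, which did not follow this order, are not drawn.

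Ratios within a tumor do not depend on scaling between tumors. Flt1 to Kdr, the decoy against the signaling VEGF receptor, was 0.913, 0.484 and 0.649 under IgG and 0.698, 0.594 and 0.634 under anti-PD-1. The anti-PD-1 ratios lay inside the IgG range, and the mean log2 ratio differed by -0.04 (exact permutation test, p = 0.9). Tek to Tie1 was 0.428, 0.851 and 0.481 under IgG and 0.399, 0.512 and 0.813 under anti-PD-1, a difference of -0.03 on the log2 scale (exact permutation test, p = 0.9). Vwf to Pecam1 was 0.0711, 0.140 and 0.118 under IgG and 0.265, 0.186 and 0.0761 under anti-PD-1, with a log2 difference of 0.56 (exact permutation test, p = 0.4). Leaving out anti-PD-1 replicate 1 gave 0.18 for this difference, and leaving out anti-PD-1 replicate 3 gave 1.07. In Vwf to Pecam1, 2 anti-PD-1 tumors lay above every IgG tumor and the other lay within their range. Plvap to Pecam1 differed by 0.25 (exact permutation test, p = 0.6) and Emcn to Pecam1 by -0.07 (exact permutation test, p = 1). Adjusted over the 6 ratios tested, which include the angiopoietin ratio given next, every p was 1 (exact permutation tests), and no p under 0.1 is possible with 3 tumors against 3.

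Ligands and partners of these receptors were read from lists written, like the 10 genes, with earlier results known. Of 8 VEGF ligands and partner receptors 7 were tested, and 0 were called at an unadjusted p under 0.05, beside 6.22% of all genes called higher and 6.05% lower. Vegfa, the main angiogenic ligand, was far above its receptors, with 47.9, 12.2 and 25.0 FPKM under IgG and 29.1, 42.5 and 52.3 FPKM under anti-PD-1. IgG replicate 1 overlapped the anti-PD-1 tumors (log2 fold change 0.69, standard error 0.46, limma adjusted p = 0.570). The order of the tumors for Vegfa was not that of the receptors, since anti-PD-1 replicate 2 was at rank 3 for the ligand and last for Kdr and Flt1. Pgf, a ligand of Flt1, had 41.0, 43.3 and 12.0 FPKM under IgG and 29.8, 29.2 and 24.3 FPKM under anti-PD-1 (log2 fold change -0.01). Vegfb, also a ligand of Flt1, had a log2 fold change of -0.04. The lymphatic ligand Vegfc had -0.13 and its receptor Flt4 -0.27, while the co-receptors Nrp1 and Nrp2 had -0.11 and -0.05. Vegfd was under the filter, with at most 1.05 FPKM.

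Angpt1 and Angpt2 were each high in a single IgG tumor. Angpt1, the Tie2 agonist, had 1.82, 11.4 and 1.03 FPKM under IgG and 1.53, 0.784 and 0.485 FPKM under anti-PD-1. Its IgG mean rested on replicate 2, with 1424 reads, the tumor in which Tek was also highest (log2 fold change -1.13, standard error 0.64, limma adjusted p = 0.501). Angpt2, the context-dependent antagonist, was high in IgG replicate 1 alone, at 5.70 FPKM against 0.519 to 1.40 in the other 5 tumors (log2 fold change -0.41). Angpt2 to Angpt1 was 3.14, 0.0456 and 1.3567 under IgG and 0.768, 1.44 and 2.59 under anti-PD-1, a log2 difference of 1.29 (exact permutation test, p = 0.8). Without IgG replicate 2 this difference was -0.54. Ptprb, the phosphatase that restrains Tie2, had a log2 fold change of -0.23, and Angpt4, also a Tie2 ligand, was under the filter. Angpt4 had 9, 0 and 10 reads under IgG and 31, 14 and 31 reads under anti-PD-1, and its groups did not overlap, as was so for 18.1% of all tested genes.

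Of 14 ligands, partners and targets of endoglin, 12 were tested, and 1 of them, Tgfb1, was called higher at an unadjusted p under 0.05, beside 6.22% of all genes. Tgfb1 had 10.2, 4.85 and 10.3 FPKM under IgG and 20.8, 11.5 and 19.7 FPKM under anti-PD-1, with no overlap (log2 fold change 0.98, limma adjusted p = 0.357). The inhibitory Smad7 also did not overlap, with 0.25, and 2 of 12 genes without overlap compare with 18.1% of all genes. The receptors were on either side of 0, with 0.07 for Acvrl1 (the ALK1 receptor of endothelium), -0.27 for Bmpr2, -0.42 for Tgfbr1 and -0.30 for Tgfbr2. The BMP9 gene Gdf2 was at 0 reads in all 6 tumors and Bmp10 had 3 reads in 1 tumor. Tgfb3 had a log2 fold change of 0.07, Smad1 -0.03, Smad5 -0.09, Smad6 -0.28, Id1 0.10 and Id3 0.14.

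Other endothelial genes did not pass the test either. Of a list of 24 pan-endothelial genes 21 were tested, and 0 were called at an unadjusted p under 0.05 (limma, adjusted p under 0.05 also 0), beside 6.22% of all genes called higher and 6.05% lower. Their log2 fold changes were negative for 19, beside 49.2% of all genes, and positive for 2 (Ramp2 and Tm4sf1), from -0.47 for Cd93 to 0.26, with a median of -0.14. Tm4sf1, at 147 to 271 FPKM, was far above every other gene of the list. The median of the list in single tumors, relative to the 6-tumor mean, was 0.25, 0.04 and 0.03 under IgG and 0.12, -0.31 and -0.08 under anti-PD-1. As for the 10 genes, anti-PD-1 replicate 2 was the lowest. Robo4, a guidance receptor of endothelium, was the 1 of 21 without overlap, beside 18.1% of all genes, with 1.85, 1.23 and 1.24 FPKM under IgG and 0.936, 0.708 and 0.858 FPKM under anti-PD-1 (log2 fold change -0.40, standard error 0.20, limma adjusted p = 0.445).

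Lists for vessel types were short, and their counts are to be read beside the 6.22% of all genes called higher, the 6.05% called lower and the 18.1% without overlap. Among arterial genes 4 of 7 were tested and none was called, with 0.56 for Efnb2 (ephrin-B2) and -0.43 for the Notch ligand Dll4. The arterial gene Gja5, under the filter, was higher without overlap, on 12, 29 and 24 reads under IgG and 33, 51 and 36 reads under anti-PD-1. Among venous genes 4 of 5 were tested and 1 was called higher. This was Nr2f2 (COUP-TFII, a venous transcription factor that stromal cells also express), with 1.74, 0.932 and 1.15 FPKM under IgG and 2.401, 2.405 and 2.33 FPKM under anti-PD-1 (log2 fold change 0.59, limma adjusted p = 0.355). Vcam1, the adhesion molecule in the venous and leukocyte adhesion lists, had -0.37, and Icam1 had -0.17. Of 5 capillary genes 4 were tested, with -0.43 for Cd36 and 1.39 for Rgcc, which ran from 5.81 to 82.5 FPKM and overlapped. None of 8 tip cell genes was called, with 5 lower and 3 higher in mean (Cxcr4 at 0.48, Aplnr at 0.34 and Kcne3 at 0.04), and Apln (the apelin ligand, log2 fold change -0.72) and the basement membrane gene Nid2 (-0.57) were the furthest from 0. Like Angpt2, Apln was high in IgG replicate 1 alone, at 10.4 FPKM against at most 2.45 elsewhere. Among lymphatic genes 4 were tested and 0 called, with 0.61 for Reln (no overlap), 0.40 for Lyve1, 0.11 for Pdpn and -0.27 for Flt4. Under the filter, Prox1, the lymphatic master regulator, went the other way without overlap, with 34, 88 and 199 reads under IgG and 36, 16 and 1 reads under anti-PD-1, scaled to 0.184, 0.437 and 0.972 against 0.168, 0.0786 and 0.005 FPKM.

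**Figure D4:**
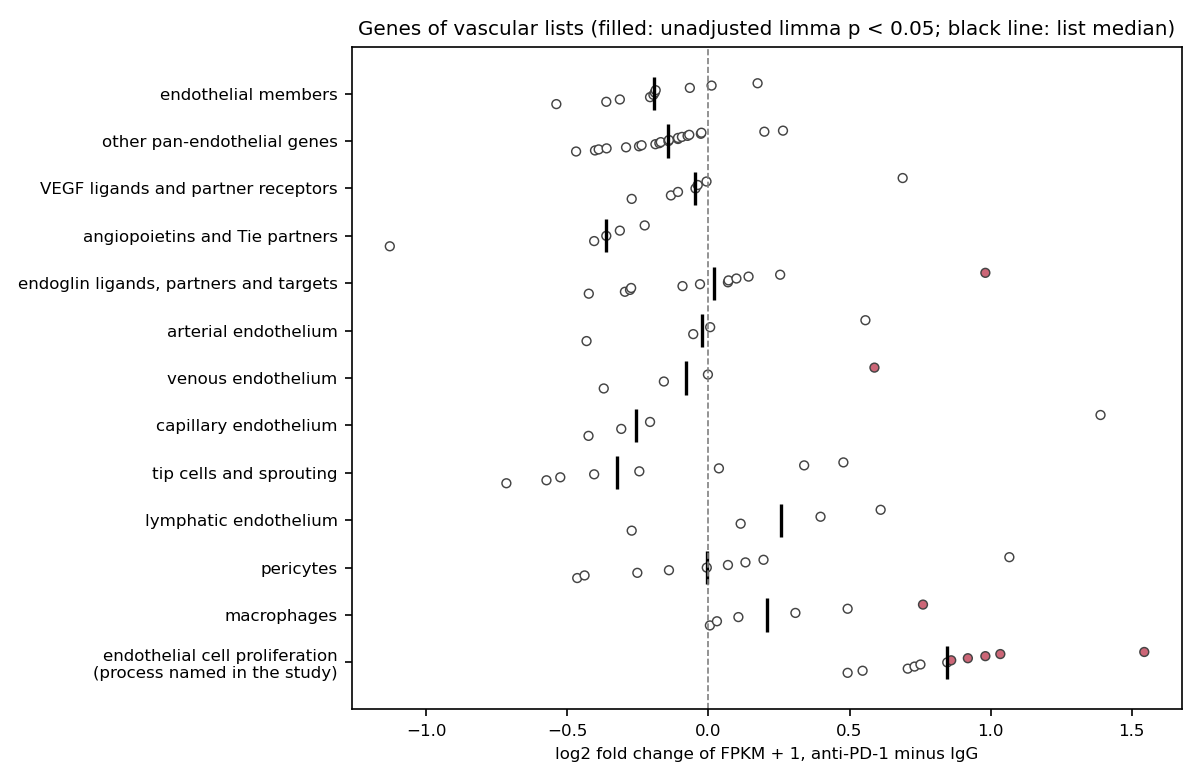
Log2 fold change of FPKM + 1 (horizontal axis, anti-PD-1 minus IgG) for each tested gene of the vascular lists, macrophage genes and the proliferation process named in the study, with a black line at each list's median and filled points for an unadjusted limma p under 0.05. No point of the endothelial identity, pan-endothelial or VEGF rows is filled. Of the 11 proliferation genes, which the study chose on these tumors, 5 are, beside 6.22% of all genes called higher.

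The 11 genes that the study assigned to endothelial cell proliferation (among them Tgfb1, Vim, Bmp1 and Ccnd1) include none of the 10 identity genes. All 11 had a higher mean in anti-PD-1 tumors, and the median was 0.85 on the log2 scale, against -0.19 for the identity genes. The furthest from 0 were Vim (vimentin, 1.54) and Bmp1 (a procollagen protease, 1.03). At an unadjusted p under 0.05, 5 of the 11 were called higher and 0 of the 10 in either direction, beside 6.22% of all genes higher and 6.05% lower, and the difference between the lists was not tested. The study chose the 11 genes on these tumors, so their direction is not independent evidence.

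Cells other than endothelium can also express some of the 10 genes. Pecam1 and Flt1 are found on myeloid cells, and of 6 macrophage genes 1 was called higher (6.22% of all genes were), Cd68, with 18.3, 15.2 and 13.8 FPKM under IgG and 22.1, 30.7 and 29.3 FPKM under anti-PD-1 (log2 fold change 0.76, limma adjusted p = 0.344). The 6 macrophage genes summed to between 37.4 and 45.2 FPKM under IgG and between 49.4 and 68.9 FPKM under anti-PD-1. Singly, Cd68 was the 1 of 6 whose groups did not overlap, beside 18.1% of all genes. Mrc1 had a log2 fold change of 0.49, with overlap. The others were nearer to 0, with 0.31 for Itgam, 0.11 for Csf1r, 0.03 for Ptprc and 0.005 for Adgre1. Vwf and Pecam1 are carried by platelets, whose 7 genes summed to between 4.19 and 4.68 FPKM under IgG and between 3.53 and 6.43 FPKM under anti-PD-1. Of these, Gp1bb was at 0 in all tumors, Itga2b had a log2 fold change of 0.11 and Pf4 0.27. Under the filter, Ppbp, a platelet chemokine, was lower in FPKM without overlap, on only 9, 4 and 6 reads under IgG and 4, 0 and 0 reads under anti-PD-1. Eng is found on fibroblasts, whose 6 genes summed to between 76.5 and 235 FPKM under IgG and between 90.6 and 338 FPKM under anti-PD-1, highest in anti-PD-1 replicate 1, the tumor with the most Eng. The list was split, with 3 genes higher in mean (the collagens Col1a1 at 0.76, Col3a1 at 0.77 and Col1a2 at 0.70) and 3 lower (Dcn at -0.18, Lum at -0.24 and Pdgfra at -0.12). Of 10 pericyte genes, which mark the cells that wrap capillaries, 9 were tested and 0 called, with -0.47 for Rgs5 and 1.07 for Kcnj8. Of 5 smooth muscle genes, Acta2 had 0.55 and Des 0.50, while Myh11 had -0.25, Tagln -0.21 and Cnn1 -0.35, with a median of -0.21. Cnn1 was the 1 of 5 without overlap, beside 18.1% of all genes. The part of these cells in the endothelial values was not tested.

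The genes whose profile over the 6 tumors was nearest to the mean of the 10 were in none of the endothelial lists. By root-mean-square difference of centered log2 values among the 11077 genes whose FPKM averaged 2 or more, they were Ube2e3, 6820431F20Rik, Rcan1, Zadh2, Cdc42bpb, Tbc1d1, Sun2 and Dpy19l1, with differences from 0.061 to 0.086 and a median of 0.359 over all genes compared. Ube2e3, a ubiquitin-conjugating enzyme, had 15.9, 13.3 and 14.9 FPKM under IgG and 17.5, 10.7 and 12.9 FPKM under anti-PD-1. Of the pan-endothelial genes compared, Cd34 came nearest, at rank 16, and Mmrn2 was at rank 122. The furthest were Cd93 at rank 3261, Tm4sf1 at 8674 and Ecscr at 9344. Of the 8 nearest genes, 6 were again among the nearest 8 with anti-PD-1 replicate 3 left out. With anti-PD-1 replicate 1 left out 4 of them were, and with anti-PD-1 replicate 2 left out 0. With IgG replicates 1, 2 and 3 left out in turn, 1, 1 and 2 of them were.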

How the data were processed

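Per the labels and the methods of the paper, the authors checked reads with FastQC 0.11.9, trimmed them with Cutadapt 3.5 and aligned and counted them with RSEM 1.3.1 on a Bowtie2 2.4.1 index of mm10, and tested counts with DESeq2 1.36.0 in R 4.1. The authors deposited FPKM per tumor, and how FPKM was made from the counts is not given in the sources used here. Multiplied by the merged exon length, between 97.0% and 97.3% of detected values in a tumor came out at whole reads. Gene IDs were joined to GENCODE release M21 (GRCm38), which matched 54495 of 54532. FPKM was divided by median-of-ratios factors (between 1.00 and 1.01), 1 was added and log2 taken, so that fold changes of low genes are understated. Where the 6 tumors averaged 0.5 FPKM or more, limma 3.58.1 (R 4.3.3) was applied (eBayes with trend, two-sided, Benjamini-Hochberg). Exact permutation tests, two-sided, compared log2 values of 3 tumors with 3. Python 3.11.15 was used for tables. The script was tested on simulated data. Genes named were the 10 members, all VEGF, Tie and endoglin partners, the 2 furthest from 0 in each other list, any at 0 throughout and the 8 nearest profiles. Others (Tm4sf1, Ramp2, Ecscr, Hba-a1, Hbb-bs, Alas2, Adipoq, Ccnd1, Cd34, Mmrn2, Gja5, Prox1, Pdpn, Ppbp and the further members of the epithelium, macrophage, fibroblast, smooth muscle and tip cell lists) were chosen after their values were seen. Ccl21a matched more than 1 gene ID and was left out. Promoters were read from RefSeq, GRCm38.p6. The members and lists were chosen with earlier results of these data known. Alternatives were another pseudocount, filters, scaling, the variance model, voom on recovered reads, a replicate block and leaving out each tumor.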

Additional observations from a re-analysis of the deposited data

How the results depend on the processing

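In none of the 14 alternatives did any of the 10 genes reach a limma adjusted p under 0.05, and none was called higher at an unadjusted p under 0.05. The median log2 fold change stayed between -0.32 and -0.09. The number called lower at an unadjusted p under 0.05 was 0 or 1 with each tumor left out (Tie1 without anti-PD-1 replicate 1, limma adjusted p = 0.433, beside 5.23% of all genes), and it was 1 with the replicate block (Cdh5, limma adjusted p = 0.420, beside 5.36%). In the other 5 fits it was 0, beside 3.01% to 9.34%. Same-numbered tumors did not deviate together (r across genes of -0.16, 0.01 and 0.19 for numbers 1 to 3, and not every tumor correlated best with its own number), so the block only shares a number. The number without overlap between groups was 0 to 4 with each tumor left out. It was 4 without IgG replicate 2 (Pecam1, Cdh5, Kdr and Flt1 lower, beside 11.1% of all genes lower without overlap in that comparison), 2 without anti-PD-1 replicate 1 (Tie1 and Emcn lower, beside 15.1%), 1 without IgG replicate 1 (Tek lower, beside 17.7%) and 1 without anti-PD-1 replicate 3 (Vwf higher, beside 13.9% higher). Without IgG replicate 3 or anti-PD-1 replicate 2 it was 0, beside 28.9% and 28.3% in either direction.

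Signs turned for 3 genes and 5 ratios. Plvap was -0.018 with quantile normalization and ran from -0.34 to 0.39 when single tumors were left out. Eng ran from -0.32 to 0.14 and Vwf from -0.051 to 0.37 in those fits. The other genes stayed lower but moved in size with single tumors left out, Flt1 between -0.38 (IgG replicate 2 left out) and -0.054 (IgG replicate 1 left out), Kdr from -0.25 (without IgG replicate 2) to -0.076 (without anti-PD-1 replicate 2), Emcn from -0.32 (without anti-PD-1 replicate 1) to -0.058 (without anti-PD-1 replicate 3), Pecam1 from -0.37 to -0.096, Cdh5 from -0.85 to -0.13, Tek from -0.45 to -0.17 and Tie1 from -0.56 to -0.24. With voom on recovered reads, Tek was -0.59, Tie1 -0.55, Flt1 -0.32, Emcn -0.31, Kdr -0.28 and Vwf 0.32, each over 1.5 times the reported size. With 0.1 added to the FPKM this was so of Tek (-0.54), Flt1 (-0.30), Emcn (-0.30) and Vwf (0.29). The ratio of Flt1 to Kdr ran from -0.27 to 0.19, Tek to Tie1 from -0.31 to 0.28, Angpt2 to Angpt1 from -0.54 to 2.51 (below 0 without IgG replicate 2), Plvap to Pecam1 from -0.015 to 0.52 and Emcn to Pecam1 from -0.23 to 0.18. Vwf to Pecam1 stayed above 0, from 0.18 to 1.07. With 1 added to each FPKM, Tek to Tie1 was 0.048 and Emcn to Pecam1 0.016. The cause was not tested. With a mean FPKM of at least 2, only 6 of the 10 genes were tested.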
